A study of Zea mays with 6 samples.

Results

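The phenylalanine ammonia-lyase (PAL) family of maize was followed through leaf, stem and root of well-watered and drought-stressed plants. The 9 PAL genes were taken by a fixed list of gene identifiers, drawn up with earlier results of these data known, and all 9 were found among the 109715 identifiers of each tissue's table. The plants were the hybrid ZD619, recorded as wild type and as being at a stage of 2 to 3 leaves. The study's methods give that stage for when 4 plants were retained. Water was withheld from 3-week-old seedlings for about 1 week, and the soil was then kept stable for 2 to 3 days. Sampled plants were therefore past the recorded stage. Relative soil water content (RSWC) was 80% for control plants and 35% for drought plants. Each RNA sample was drawn from 4 plants. There was 1 library for each of the 6 combinations of tissue and treatment, so no value below has an error between replicates, no p-value could be computed, and every difference is one between 2 libraries.

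PAL removes ammonia from phenylalanine and leaves cinnamic acid, which is the first step of the phenylpropanoid pathway. Cinnamic acid is the source of the monolignols that polymerise into lignin, of the hydroxycinnamic acids that cross-link grass cell walls, and of flavonoids and anthocyanins. In grasses some PAL enzymes also accept tyrosine. Plants carry PAL as a small multigene family, and lignifying xylem and sclerenchyma are its best known sites of expression.

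The reference table of the NAM-5.0 assembly of the inbred line B73 matched 7 of the 9 identifiers. It gave the name PAL1 (also pal3) to GRMZM2G074604 and a locus number alone to the other matched genes. GRMZM2G334660 and GRMZM2G153871 had no entry in it. Apart from PAL1, membership of the family therefore rests on the list of identifiers and was not checked against sequence. GRMZM2G160541 was classed there as a transcribed pseudogene, and the other 6 matched genes as protein coding. In this gene order GRMZM2G074604 and GRMZM2G029048 are direct neighbours, with GRMZM2G170692 next but 1 to the second of them. A further group holds GRMZM2G160541 and its direct neighbour GRMZM2G081582, with GRMZM2G063917 next but 1 to the latter. GRMZM2G118345 lies on another chromosome. Genes of 1 family can share reads, and how such reads were divided among these genes was not tested.

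Expression was given as FPKM, fragments scaled to the length of the transcript and to the mapped fragments of the library, so levels can be set beside each other across genes. Each tissue had its own table, and levels in different tissues are set side by side below with that limit. Sums of FPKM ran from 544251 in root control to 908668 in root drought. In root drought 9.55% of the sum came from GRMZM2G581850, at 86748 FPKM there and listed at 0 in the other 5 libraries. The median log2 fold change of all genes whose mean reached 0.1 FPKM was -0.01 in leaf, 0.06 in stem and 0.32 in root. Root changes of the family sum and of several PAL genes are therefore also given relative to that median. Of the 11 genes matched by the symbols of leaf photosynthesis, the summed level was 19589 FPKM in leaf control and 19139 FPKM in stem control, against 18.1 FPKM in root control. Their sum was thus about as high in stem as in leaf, but single genes differed in both directions. In control plants lhcb3 was at 523 FPKM in leaf and 3517 in stem, whereas Ppdk1 was at 8124 FPKM in leaf and 2604 in stem. The meristem gene kn1 was listed at 0 in all 6 libraries.

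The summed FPKM of the family was 157 in leaf control and 68.6 in leaf drought. Stem had 441 in control and 1616 in drought, and root had 1317 in control and 1156 in drought. Drought thus went with a sum 2.29-fold lower in leaf and 3.67-fold higher in stem, while the root sum was at 0.878 of its control. With the leaf libraries brought to the same sum of FPKM, the leaf log2 ratio went from -1.20 to -0.98, within 2-fold. In root the log2 ratio of the whole family was -0.19. It was -0.51 relative to the root median and -0.93 with the root libraries at the same sum of FPKM. Without PAL1, which carried most of the root sum, it was 0.26, below the median of 0.32 over all root genes. In whole tissue, fewer cells of a type and less RNA per cell cannot be told apart.

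Taken gene by gene, all 9 PAL genes were lower in drought in leaf. There 7 were more than 2-fold lower and 0 more than 2-fold higher, whereas 15.9% of the 37063 leaf genes whose mean reached 0.1 FPKM were more than 2-fold lower and 16.9% more than 2-fold higher, 32.8% in either direction. The leaf count of 7 was 5 after 1 FPKM was added to each value, and 3 of the 5 PAL genes left where the mean had to reach 1 FPKM. In stem 3 PAL genes were more than 2-fold higher and 0 more than 2-fold lower, against 17.8% higher, 17.2% lower and 35.1% either way among 36265 genes. In root 4 were more than 2-fold higher and 0 more than 2-fold lower, against 28.1% higher, 17.8% lower and 45.9% either way among 37859 genes. The median log2 fold change of the PAL genes was -2.21 in leaf, 0.77 in stem and 0.96 in root. The leaf count stands far above the background share, while the root and stem counts of 9 genes are closer to it. After the root median was subtracted, the share of rising genes among all root genes past 2-fold went from 61.3% to 47.9%. The same 4 PAL genes then counted as higher in root, at 1.42 to 3.19, and 1 counted as lower, GRMZM2G160541 at -1.09. With the root libraries at the same sum of FPKM those 4 were at 1.01 to 2.78. Shares of all genes past 2-fold were not computed for 1 FPKM added, a mean of 1 FPKM, centring or the same sum.

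**Figure D1:**
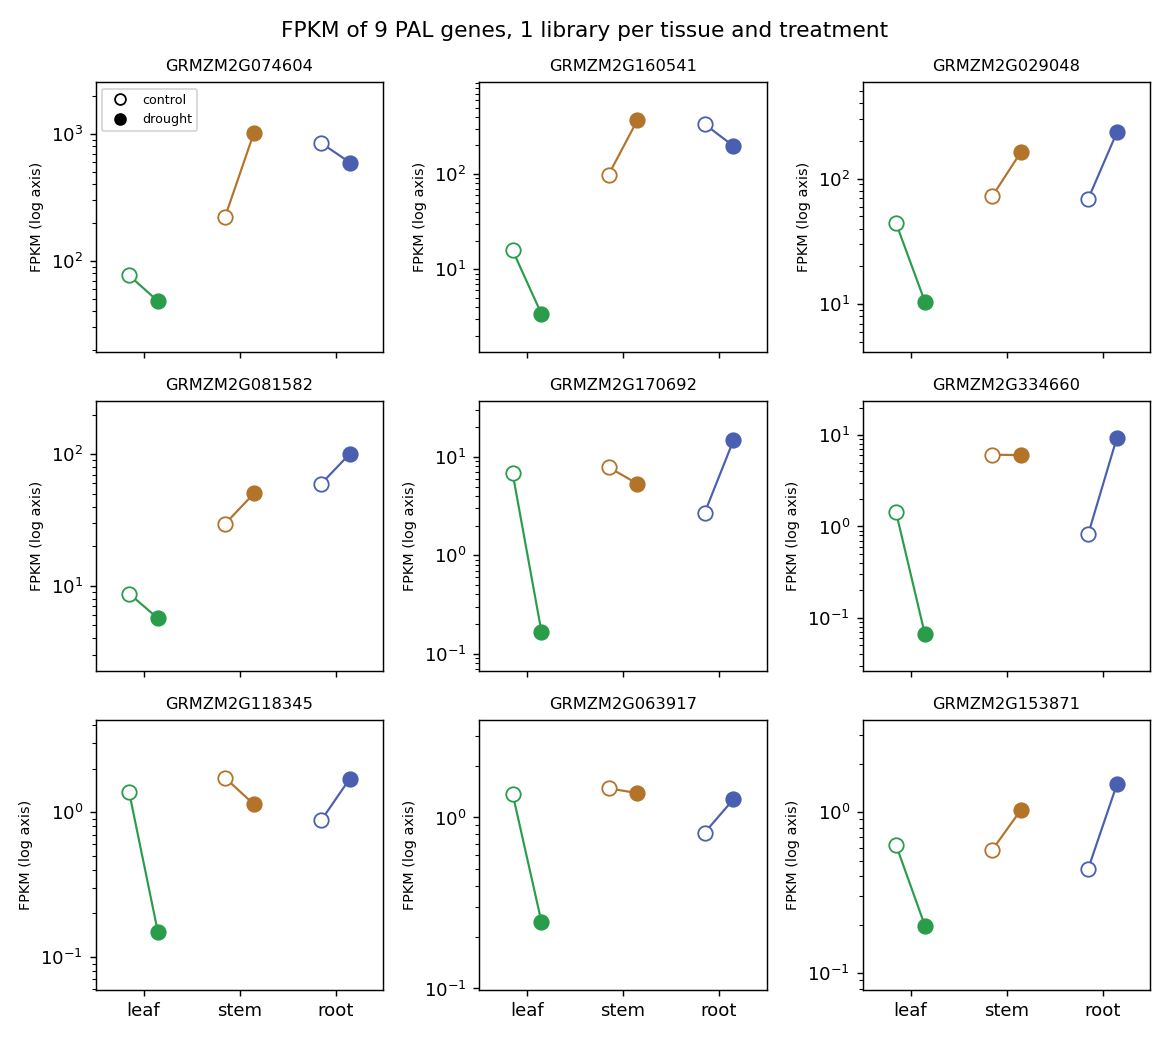
FPKM of each PAL gene on a log axis that differs between panels, with an open circle for the control library and a filled circle for the drought library of each tissue; lines join the pair and are no error bars. All 9 genes are at their lowest in leaf drought, from 0.0661 FPKM for GRMZM2G334660 to 48.2 FPKM for GRMZM2G074604.

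PAL1 (GRMZM2G074604) had the highest level of the family in all 6 libraries. Its leaf level was 76.9 FPKM in control against 48.2 under drought. Stem had 222 FPKM in control against 1019 under drought, and root 848 FPKM in control against 595 under drought. Among genes above 0.1 FPKM in the same library, these levels stood at percentile 95.2 and 92.2 in leaf, 99.0 and 99.8 in stem, and 99.9 and 99.7 in root. The stem value was therefore 4.58-fold higher in drought, a log2 fold change of 2.20, the largest of the family in stem. The leaf and root values were lower in drought by less than 2-fold, with log2 fold changes of -0.67 and -0.51. Relative to the root median the latter was -0.83, and -1.25 when the root libraries were brought to the same sum of FPKM, which is past 2-fold.

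GRMZM2G160541, the gene classed as a transcribed pseudogene, was second in 3 of the 6 libraries and had the second highest mean. Its level was 15.8 FPKM in leaf control and 3.41 in leaf drought. It reached 98.8 FPKM in stem control and 368 in stem drought, and 335 FPKM in root control and 198 in root drought. The log2 fold change was thus -2.21 for leaf, 1.90 for stem and -0.76 for root. The gene stood at 0.332 to 0.444 of the level of PAL1 in the stem and root libraries, but at 0.206 of it in leaf control and 0.0707 in leaf drought. Across the 6 libraries its log2 levels followed those of PAL1 with a Pearson's r of 0.98, a description over 6 libraries that share their 3 tissues.

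GRMZM2G029048, the direct neighbour of PAL1, moved differently in root. Its level was 44.1 FPKM in leaf control and 10.5 in leaf drought, and 72.1 FPKM in stem control and 163 in stem drought. In root it went from 68.7 FPKM in control to 234 FPKM in drought, while PAL1 was lower in drought. On the log2 scale drought lay at -2.07 of control for leaf, 1.18 for stem and 1.77 for root, the last being 1.44 relative to the median. It was the one PAL gene past 2-fold in every tissue, lower in leaf and higher in stem and root. Set against PAL1, its level was 0.573 of it in leaf control and 0.0810 in root control, and 0.392 of it in root drought.

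GRMZM2G081582, the direct neighbour of GRMZM2G160541, stayed within 2-fold in every tissue. It was at 8.74 FPKM in leaf control and 5.66 in leaf drought, at 29.6 and 50.4 FPKM in stem, and at 59.6 and 101 FPKM in root. The log2 fold change was -0.63 for leaf, 0.77 for stem and 0.76 for root, the last being 0.44 relative to the root median and 0.02 when both libraries were brought to the same sum of FPKM. In root the pair of neighbours went in opposite directions, GRMZM2G160541 being lower and GRMZM2G081582 higher in drought.

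**Figure D2:**
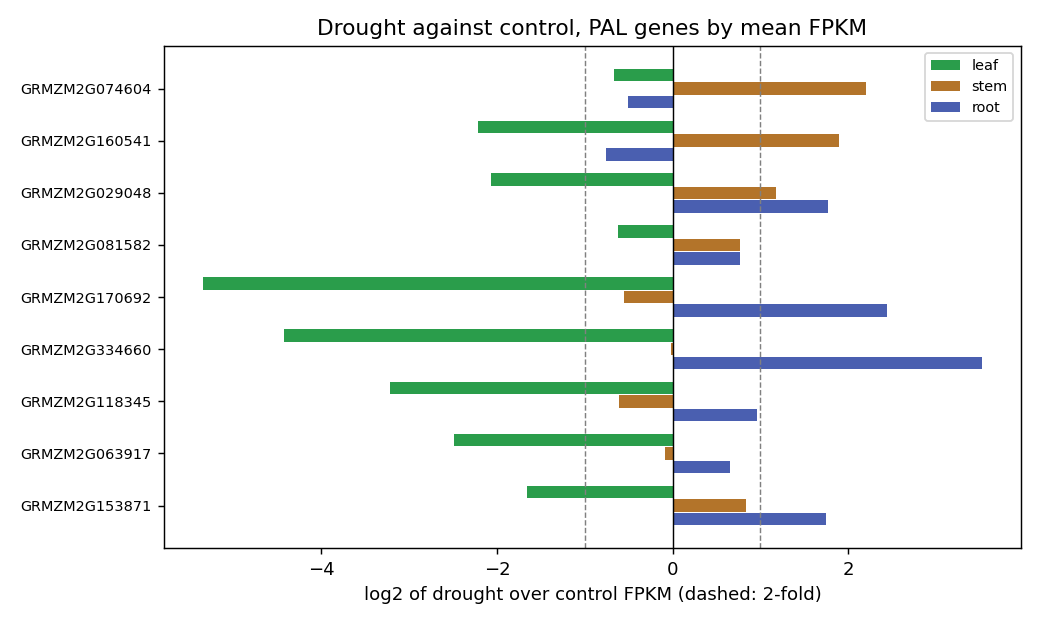
Log2 of drought over control FPKM for each PAL gene, ordered by mean FPKM, with 1 bar for each tissue and dashed lines at 2-fold. Every leaf bar points to lower values, 3 stem bars and 4 root bars pass 2-fold towards higher values, and the 2 genes of highest mean FPKM are the ones with lower values in root.

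The other 5 PAL genes never exceeded 14.7 FPKM. Together they made up 7.41% of the summed family level in leaf control and 1.204% under drought. The share was 4.03% and then 0.924% for stem, and 0.429% and then 2.47% for root. Their share was therefore highest in the leaves of watered plants. Fewer fragments stand behind lower values, and their number was not counted here. Fold changes of these genes are thus less certain than those above, most of all in leaf, where drought values were at 0.246 FPKM or less.

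GRMZM2G170692 was at 6.83 FPKM in leaf control and at 0.168 FPKM in leaf drought, the largest leaf difference of the family at 40.6-fold. In stem it was at 7.86 FPKM in control and 5.33 in drought, and in root at 2.70 FPKM in control and 14.7 in drought. The log2 fold change was -5.34 for leaf, -0.56 for stem and 2.45 for root. After 1 FPKM was added to each value, leaf was at -2.75 and root at 2.09.

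GRMZM2G334660 also had its lowest level in leaf drought and its highest in root drought. Its leaf level was 1.42 FPKM in control and 0.0661 under drought. Stem had 6.10 FPKM in control and 6.04 under drought, and root 0.818 FPKM in control and 9.37 under drought. The root value in drought was the largest rise of the family, with a log2 fold change of 3.52, and of 2.51 after 1 FPKM was added to each. In leaf it was -4.43, or -1.19 after the same addition. The stem values were all but equal at a log2 fold change of -0.01.

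GRMZM2G118345 and GRMZM2G063917 had closely similar levels, although the reference does not place them next to each other. For GRMZM2G118345 the control and drought levels were 1.38 and 0.148 FPKM for leaf, 1.73 and 1.13 FPKM for stem, and 0.877 and 1.71 FPKM for root. For GRMZM2G063917 they were 1.38 and 0.246 FPKM for leaf, 1.48 and 1.39 FPKM for stem, and 0.814 and 1.28 FPKM for root. Both were more than 2-fold lower in leaf drought and within 2-fold in stem and root. The root log2 fold change of 0.96 for GRMZM2G118345 lay just under the 2-fold limit. For GRMZM2G063917 it was 0.65, and -0.091 when both libraries had the same sum of FPKM.

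GRMZM2G153871 had the lowest mean of the family. It was at 0.623 FPKM in leaf control and 0.197 in leaf drought, at 0.581 and 1.03 FPKM in stem, and at 0.443 and 1.49 FPKM in root. The log2 fold change was -1.66 for leaf, 0.83 for stem and 1.75 for root. After 1 FPKM was added to each value these became -0.44, 0.36 and 0.79, all within 2-fold.

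**Figure D3:**
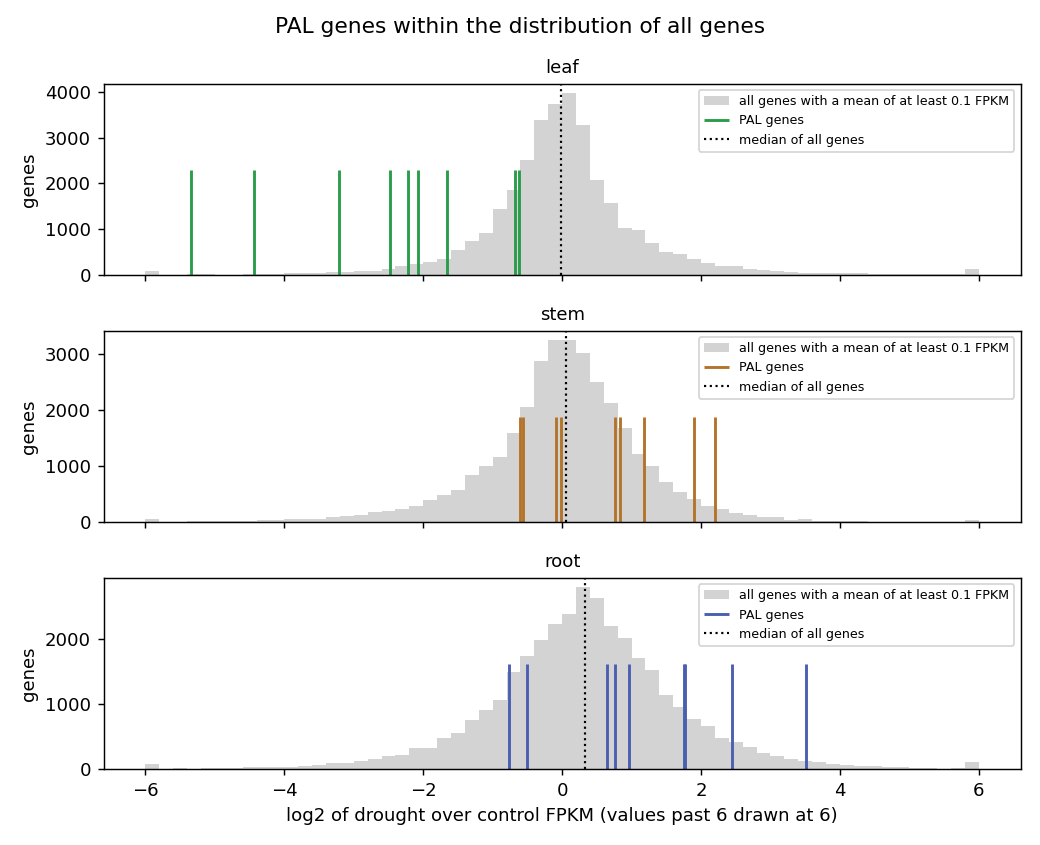
Log2 of drought over control FPKM for all genes whose mean in the tissue reached 0.1 FPKM (grey, number of genes per bin), with each PAL gene as a coloured line and the median of all genes as a dotted line. The PAL genes lie from -5.34 to -0.63 in leaf, from -0.61 to 2.20 in stem and from -0.76 to 3.52 in root.

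Because low genes pass a fold limit more easily, the counts were also read beside genes of like level. Among leaf genes with a mean from 0.1 to 10 FPKM, 20.3% were more than 2-fold lower in drought, and 6 of the 7 PAL genes in that range were. Of the leaf genes at 10 FPKM or more, 7.68% were, and 1 of 2 PAL genes. In stem the 3 PAL genes past 2-fold were all among the 4 at 10 FPKM or more, where 11.2% of genes were higher, while 0 of the 5 below 10 FPKM passed, against 20.9% of such genes. In root 3 of the 5 PAL genes below 10 FPKM were higher, against 27.9% of such genes, and 1 of the 4 at 10 FPKM or more, against 28.7%, a share near the background. The 4 root genes past 2-fold were GRMZM2G029048, GRMZM2G170692, GRMZM2G334660 and GRMZM2G153871.

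Levels in control plants were ordered root, stem, leaf for the summed family. Root was 8.38-fold above leaf and 2.99-fold above stem, and stem was 2.80-fold above leaf, in values from separate tables. This order was that of PAL1, GRMZM2G160541 and GRMZM2G081582, which were 11.0-fold, 21.2-fold and 6.81-fold higher in root control than in leaf control. The 5 low genes did not share it. All of these were lower in root control than in leaf control, from 0.394 of the leaf level for GRMZM2G170692 to 0.711 for GRMZM2G153871. GRMZM2G029048 lay between, with 1.56 times its leaf level in root and 1.64 times in stem.

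In drought plants the order of the sum became stem, root, leaf. Stem was 23.6-fold and root 16.9-fold above leaf, and stem was 1.40-fold above root. All 9 PAL genes were more than 2-fold higher in stem drought and in root drought than in leaf drought. The share of all genes past 2-fold between these tissues was not computed, so this count has no background beside it. The 5 low genes were at 0.246 FPKM or less in leaf drought. Between the drought stem and root libraries 6 genes were higher in root, PAL1 and GRMZM2G160541 being 2 of the 3 that were higher in stem. GRMZM2G029048, GRMZM2G081582, GRMZM2G170692, GRMZM2G334660 and GRMZM2G153871 had their highest level of all 6 libraries in root drought, whereas PAL1 and GRMZM2G160541 had it in stem drought.

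**Figure D4:**
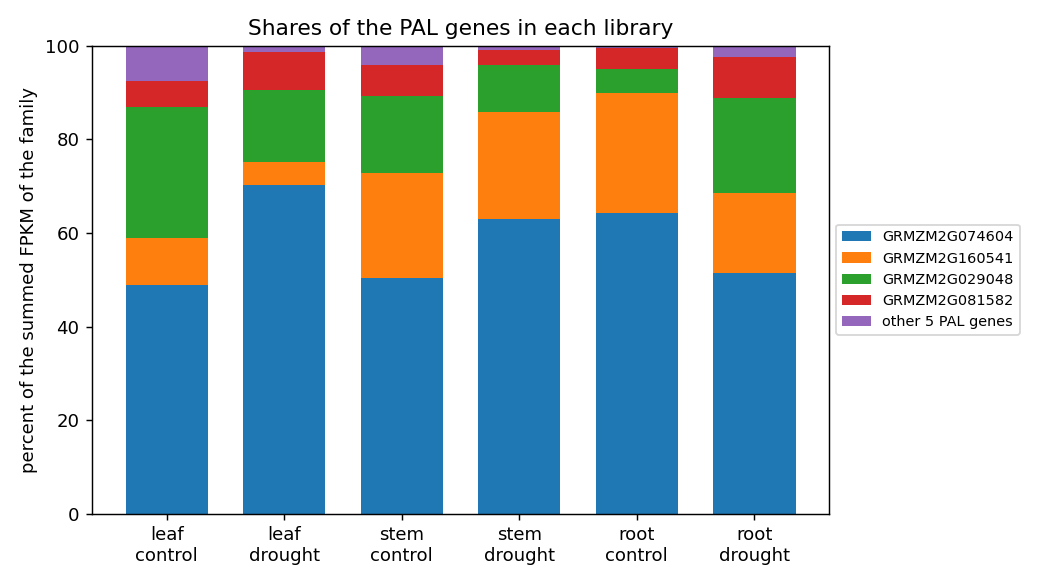
Share of each PAL gene in the summed FPKM of the family in each of the 6 libraries, in percent, with the 5 genes of lowest mean drawn together. PAL1 (GRMZM2G074604) takes between 48.9% in leaf control and 70.3% in leaf drought, and GRMZM2G029048 between 5.22% in root control and 28.0% in leaf control.

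The makeup of the family changed with drought in each tissue. In leaf PAL1 went from 48.9% to 70.3% of the sum, GRMZM2G029048 from 28.0% to 15.3%, GRMZM2G160541 from 10.1% to 4.97% and GRMZM2G081582 from 5.56% to 8.26%. In stem PAL1 went from 50.5% to 63.1% and GRMZM2G029048 from 16.4% to 10.1%, while GRMZM2G160541 stayed at 22.4% and 22.8%. In root PAL1 and GRMZM2G029048 went the other way, from 64.4% to 51.5% and from 5.22% to 20.2%. The root shares of GRMZM2G160541, from 25.5% to 17.1%, and of GRMZM2G081582, from 4.52% to 8.75%, went the same way as in leaf. Shares within a library do not depend on how that library was scaled.

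For the steps after PAL, the reference named genes for 5 of 9 enzymes of the monolignol branch, 8 genes in all, and none for cinnamate 4-hydroxylase, the enzyme that acts next on cinnamic acid. The lists are thus a part of the pathway. In leaf 6 of the 8 were more than 2-fold lower in drought and 0 higher, beside 15.9% and 16.9% of all leaf genes. In stem 7 of 8 were more than 2-fold higher and 0 lower, beside 17.8% and 17.2%. In root 0 were more than 2-fold higher and 1 lower, beside 28.1% and 17.8%. Their median log2 fold changes were -1.49, 1.72 and 0.01, beside medians of -0.01, 0.06 and 0.32 over all genes of the tissues.

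The gene of 4-coumarate:CoA ligase, GRMZM2G075333 (4CL), which activates coumaric acid with coenzyme A, was at 18.0 FPKM in leaf control and 5.18 in leaf drought. In stem it was at 71.3 and 301 FPKM, and in root at 159 and 163 FPKM. Of the caffeoyl-CoA O-methyltransferases, which methylate the ring on the way to lignin, GRMZM2G127948 (ccoaomt1) was at 111 FPKM in stem control and 294 in stem drought, and GRMZM2G099363 (CCOAOMT2) at 37.7 and 140 FPKM. These went with log2 fold changes of 1.41 and 1.89 in stem and of -1.18 and -0.70 in leaf.

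Cinnamoyl-CoA reductase makes the aldehydes from which monolignols are formed. GRMZM2G131205 (CCR) was at 26.1 and 5.73 FPKM in leaf and at 100.3 and 203 FPKM in stem, a stem log2 fold change of 1.02 just past the limit and of 0.96 relative to the stem median. GRMZM2G131836 (ccr2) was at 5.11 and 17.7 FPKM in stem. The caffeic acid O-methyltransferase GRMZM5G814904 (comt) had log2 fold changes of -1.03 in leaf, 1.79 in stem and 0.34 in root. Cinnamyl alcohol dehydrogenase GRMZM5G844562 (BM1, the brown midrib gene that codes for the last step to monolignols) was at 15.5 and 4.30 FPKM in leaf, 63.4 and 199 FPKM in stem, and 171 and 156 FPKM in root. The other dehydrogenase, GRMZM2G046070 (cad1), behaved unlike the rest, at 30.2 and 30.0 FPKM in leaf and 1.44 and 0.170 FPKM in root.

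**Figure D5:**
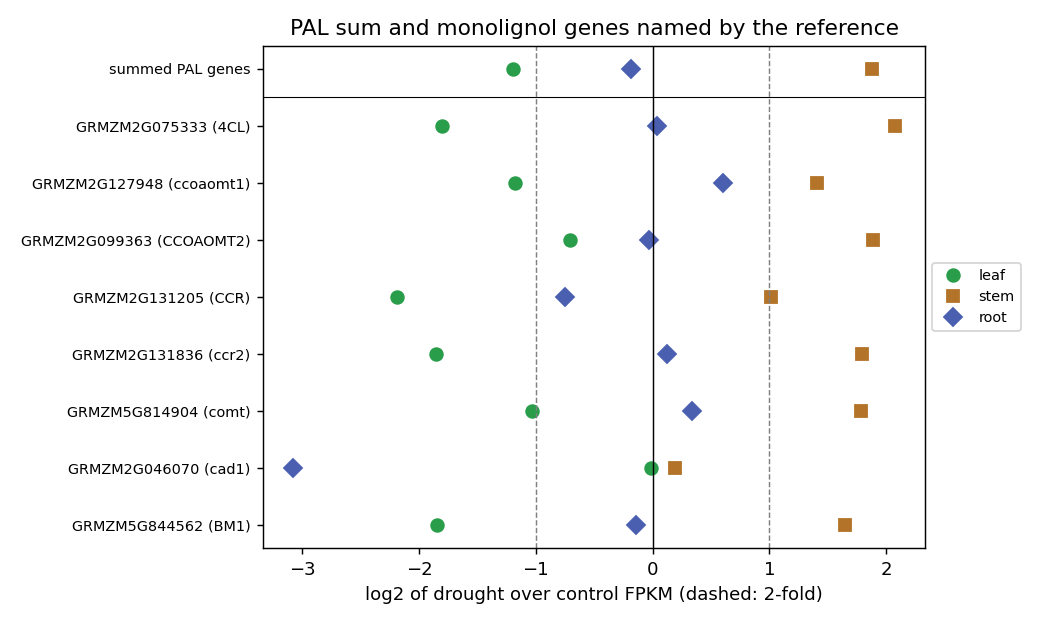
Log2 of drought over control FPKM of the summed PAL genes (top) and of the 8 monolignol genes that the reference names, with 1 symbol per tissue and dashed lines at 2-fold. The PAL sum lies at -1.20 in leaf and 1.87 in stem, and 7 of the 8 genes are past 2-fold higher in stem, the exception being GRMZM2G046070 (cad1) at 0.19.

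Of 8 flavonoid and anthocyanin genes, 4 were more than 2-fold lower and 2 higher in leaf, 3 higher and 0 lower in stem, and 1 higher and 3 lower in root. The shares of all genes were 15.9% lower and 16.9% higher in leaf, 17.8% higher and 17.2% lower in stem, and 28.1% higher and 17.8% lower in root, so that several of these counts lie near the background. The median log2 fold change of the list was -0.98 for leaf, 0.81 for stem and -0.46 for root. Most were low, and the 4 past 2-fold in root were all at 1.15 FPKM or less in both libraries. The chalcone synthase gene GRMZM2G422750 (c2), the entry to flavonoids, was at 34.4 FPKM in leaf control and 3.24 in leaf drought, at 39.4 and 571 FPKM in stem, and at 14.8 and 8.42 FPKM in root. Chalcone isomerase GRMZM2G155329 (chi1), which acts next, was at 56.2 and 8.64 FPKM in leaf, 154 and 281 FPKM in stem and 68.6 and 94.0 FPKM in root.

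Genes of secondary cell walls were higher beside the PAL sum in stem drought, but not lower beside it in root. The 5 identifiers listed for cesa10, cesa11, cesa12 and bk2 summed to 158 FPKM in stem control and 600.2 FPKM in stem drought, all 5 being more than 2-fold higher, beside 17.8% of all stem genes, with both cesa11 identifiers at 0.41 FPKM or less. In leaf the sum was 65.0 FPKM in control and 45.0 in drought, with 2 of the 3 measured genes more than 2-fold lower (15.9% of all genes) and cesa10 at a log2 fold change of -0.16. In root it was 122 and 174 FPKM, with 1 of 3 more than 2-fold higher (28.1% of all genes). Leaf photosynthesis genes summed to 17859 FPKM in stem drought, 0.933 of the control, and to 7890 FPKM in leaf drought, 0.403 of the control. The part of a different mix of cells in the PAL differences was not tested.

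Ranked by Pearson's r with the log2 of the summed family level over the 6 libraries, the first 5 of 28294 genes whose mean reached 1 FPKM were GRMZM2G143258, GRMZM5G844562 (BM1), GRMZM2G435986, GRMZM2G131836 (ccr2) and GRMZM5G868202. Their r ran from 0.993 to 0.996, and 121 genes had an r above 0.95. With 6 libraries in 3 tissues such values are a description, and no p is given. GRMZM2G143258, to which the reference gives a locus number alone, was at 1.29 and 0.206 FPKM in leaf, 4.66 and 18.7 FPKM in stem and 11.2 and 12.0 FPKM in root, control first.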

How the data were processed

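RNA of leaf, stem and root was sequenced in 1 control and 1 drought library each. Per the labels and the study's methods, the authors mapped reads to B73 with TopHat and used Cufflinks and Cuffdiff; versions and genome build are not given in the sources used here. The deposited FPKM values come in 3 tables, taken as scaled within each pair of libraries. Their log2 ratio column, the authors' own comparison, was not used. The plants were a hybrid, so the mapped genome was not their own.

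Ratios were computed without a pseudocount. A gene counted as past the limit at more than 2-fold with the mean of the pair at or above 0.1 FPKM, a gene at 0 in 1 library included. The fold is the limit the authors used, here without their p-values. Medians of log2 fold changes left out genes at 0 in 1 library. Likeness to the family used log2(FPKM + 1). The study lists aligned reads for each library. Those counts were not used here, and the fragments behind each value were not counted. Among genes under 0.06 FPKM in both libraries, values fell in steps, and 1 fragment was worth 1.14 times as much FPKM in drought as in control in leaf, 0.854 times in stem and 1.22 times in root. The study lists slightly more aligned reads for root drought than for root control, which does not go with the root step. The cause of that difference was not tested.

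The members and lists were chosen with earlier results of these data known. Named were all 9 PAL genes, up to 2 genes for each enzyme step and the 5 genes most like the family sum. Some genes of the marker, supply and MYB lists were named as well. Lists were matched by symbol in a table that covered 17.1% of the identifiers, and its positions, of another assembly, served for gene order alone. Protein and promoter sequences were not analysed here. Alternatives were folds of 1.5 and 4, added pseudocounts of 0.1 and 1 FPKM, no filter or one at 1 FPKM, centring on the median, libraries brought to the same sum or upper quartile, and the family without PAL1. The 2-fold calls and the median centring were tested on simulated drought values with planted 3-fold changes and little noise. Other steps were not tested in this way. Python 3.11.15, numpy 2.4.6, pandas 2.3.3 and matplotlib 3.10.9 were used.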

Additional observations from a re-analysis of the deposited data

Results flagged for a closer look

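In 5 PAL genes the log2 fold change was past 2-fold in opposite directions in 2 tissues. Each tissue had 1 pair of libraries, and the difference between the tissues was not tested. The share of all genes with such opposite changes was not computed. Past 2-fold in either direction were 32.8% of all genes in leaf, 35.1% in stem and 45.9% in root. For GRMZM2G029048 the log2 fold change in stem was 3.25 above that in leaf, and in root 3.84 above it. For GRMZM2G160541 stem was 4.11 above leaf. Root was 7.79 above leaf for GRMZM2G170692, 7.95 for GRMZM2G334660 and 3.41 for GRMZM2G153871. The leaf drought values of these last 3 genes were 0.168, 0.0661 and 0.197 FPKM.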

How the results depend on the processing

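No paired analysis was possible because each tissue and treatment had 1 library, and no library could be left out. Of the 27 log2 fold changes of single PAL genes, 27 kept their direction and their side of 2-fold with 0.1 FPKM added, 24 with 1 FPKM added, 26 when centred on the median and 24 with libraries at the same sum of FPKM. The exception in direction was GRMZM2G063917 in root, at -0.091 with the same sum. With the same sum PAL1 and GRMZM2G160541 in root were at -1.25 and -1.50, past 2-fold.

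The count of PAL genes lower in leaf was 7, and 3 of the 5 left where the mean had to reach 1 FPKM. Shares of all genes past the limit were not computed at this or the other alternative settings below. The stem count of 3 higher was 1 over 4-fold and 5 over 1.5-fold, where 1 was lower. The root count of 4 higher was 2 over 4-fold and 7 over 1.5-fold. Against 0 lower in root, 1 was lower over 1.5-fold, 1 when centred, 2 with the same sum, and 2 with the same sum without GRMZM2G581850, an alternative chosen after seeing the data. The family sum in leaf had a log2 ratio of -1.20, and of -0.98 with the same sum, with or without that gene. In root it was -0.19, and 0.26 without PAL1. Centred on the median the root sum was at -0.51. With the same sum of FPKM it was at -0.93, and at -0.78 with the same sum without GRMZM2G581850. The order of tissues in control held its 2-fold steps in all alternatives run.

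For the 16 monolignol and flavonoid genes, 2 were higher in leaf, and 1 over 4-fold, 1 with 0.1 FPKM added, 0 with 1 FPKM added and 0 where the mean had to reach 1 FPKM. Lower in leaf were 10, and 4 over 4-fold and 6 with 1 FPKM added. In stem 10 were higher, and 3 over 4-fold, and 0 were lower, against 1 over 1.5-fold. In root 1 was higher, 2 over 1.5-fold, 0 with 1 FPKM added and 0 where the mean had to reach 1 FPKM. Lower in root were 4, and 2 with 1 FPKM added and 0 where the mean had to reach 1 FPKM. There were 6 when centred on the median, with CCR at -1.07 and c2 at -1.14. With the same sum of FPKM there were also 6. The cause of these moves was not tested further than the settings state, and shares of all genes were not computed at those settings.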

Other observations

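The supply of phenylalanine and some MYB factors were listed beside the PAL genes. Chorismate mutase, which commits chorismate to phenylalanine and tyrosine, was represented by GRMZM2G028369 (CM1) and GRMZM2G179454 (CM2). CM1 was at 25.9 and 19.7 FPKM in leaf, 28.7 and 30.2 FPKM in stem and 26.1 and 43.7 FPKM in root, control first. CM2 was at 22.6 and 18.5 FPKM in leaf, 47.6 and 21.1 FPKM in stem and 25.0 and 55.6 FPKM in root. In stem CM2 was thus more than 2-fold lower in drought, with a log2 fold change of -1.17, where the PAL sum was 3.67-fold higher.

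GRMZM2G419239 (myb42), known as a repressor of lignin genes, was at 2.61 and 8.94 FPKM in leaf, 8.85 and 2.40 FPKM in stem and 6.85 and 55.03 FPKM in root. Its log2 fold changes of 1.77 in leaf and -1.88 in stem had the sign opposite to the PAL sum, at -1.20 and 1.87, and in root it was 3.01 beside -0.19. GRMZM2G050305 (myb31), a related repressor, was at 14.2 and 15.1 FPKM in leaf, 8.45 and 14.1 FPKM in stem and 18.5 and 11.8 FPKM in root, within 2-fold in each tissue. GRMZM2G084799 (p1), an activator of flavonoid genes in the kernel pericarp, was listed at 0 in all 6 libraries. GRMZM2G701063 (pl1) had log2 fold changes of -1.67 in leaf, the sign of the PAL sum, -0.05 in stem and -2.09 in root. Of the 6 MYB identifiers listed, 1 of 4 measured in leaf was more than 2-fold higher and 1 lower. In stem 0 of 5 were higher and 2 lower, and in root 1 of 4 higher and 1 lower. Shares of all genes were 16.9% and 15.9% in leaf, 17.8% and 17.2% in stem, and 28.1% and 17.8% in root.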
